A study of Mus musculus with 12 samples.

Results

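Transcripts of 9 calcium pumps and calcium release channels were followed in hepatocytes from fatty mouse livers. The genes were the endoplasmic reticulum pumps Atp2a2 and Atp2a3, the plasma membrane pumps Atp2b1, Atp2b2 and Atp2b4, the Golgi pump Atp2c1 and the inositol trisphosphate (IP3) receptors Itpr1, Itpr2 and Itpr3. The family was chosen by a measured value, the lower level of Atp2b2 in hepatocytes of high fat content. Differences between fat fractions are therefore given as descriptions, and the calls of the fit between fractions support nothing here. All 9 genes are among the 52636 genes of the deposited table, and all 9 passed the filter on low values that left 16563 genes for testing.

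The 12 libraries came from 6 mice and form groups of 3. Wild-type (WT) mice and mice labelled as PTPRK knockout (KO) were sampled, and hepatocytes of each mouse were sequenced as a low-fat and as a high-fat fraction. PTPRK is a receptor-type protein tyrosine phosphatase, encoded by Ptprk. All libraries came from steatotic livers, and viable hepatocytes were parted by lipid content on a Percoll gradient with differential centrifugation, a step also meant to remove other liver cells. Strain, sex, age, diet and the design of the knockout allele are not given in the sources used here. Values are reads per 20 M (M for mega), the scale on which the authors deposited them.

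Calcium signals in hepatocytes arise when hormones such as vasopressin or noradrenaline raise IP3, which opens IP3 receptors in the endoplasmic reticulum. Pumps of the Atp2a group return calcium to the endoplasmic reticulum, those of the Atp2b group expel it across the plasma membrane, and Atp2c1 loads the Golgi with calcium and manganese. In liver such signals are known to control glycogen breakdown, bile secretion and mitochondrial metabolism.

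The knockout was checked first. Ptprk itself was at 45.6% of the WT level in KO low-fat libraries and at 49.9% in KO high-fat libraries, with no overlap between genotypes. Estimated depth was 15.1 to 25.0 M reads per library, so that 3 reads correspond to 2.40 to 3.98 reads per 20 M. This floor covers counting error only. The hepatocyte markers Alb, Apoa1, Apob, Ttr, Cps1, Serpina1c, Fgb, Hnf4a, Tat and Asgr1 were present in every library, at a summed level of 752693 to 921996. Markers of other liver cells were present too and differed between fractions. The 11 stellate cell and pericyte markers summed to 220 to 964 in the 6 low-fat and 2930 to 5512 in the 6 high-fat libraries. The 11 Kupffer cell markers summed to 514 to 1447 and 2290 to 12539, and the 10 sinusoidal endothelial markers to 1154 to 2790 and 4761 to 15392. The endothelial sums of low-fat libraries also parted the genotypes, at 2728 to 2790 in WT and 1154 to 2337 in KO. In high-fat libraries they overlapped, as the stellate and Kupffer sums did in both fractions. The part of such cells in the genotype differences below was not tested. The high-fat libraries of replicate 1 stood apart, with Kupffer sums of 12539 in WT and 10820 in KO, against at most 2594 in the other high-fat libraries. The same libraries held the highest sums of 5 nuclear-retained RNAs such as Malat1 and Neat1, 154343 and 152812, against 27592 to 124202 in the other 10.

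Per length of annotated exon, the endoplasmic reticulum pump Atp2a2 was the most abundant transcript of the family by far. Its mean over all libraries was 1299 reads per 20 M per kb, with a range of 985 to 1714. Itpr1, Atp2c1 and Itpr2 followed at 141, 136 and 123 per kb, and their ranges of 127 to 176, 124 to 149 and 103 to 143 overlapped. Atp2b1 lay at 77.9 and Atp2b2 at 44.7 per kb, the latter with a range of 19.1 to 103 that spans the whole range of Atp2b1 (72.0 to 87.1). Atp2b4, at 10.2 per kb, Itpr3, at 3.71, and Atp2a3, at 3.35, were the scarcest members. With the longest annotated transcript as the length, Atp2b1 (166 per kb) came before Itpr2 (156 per kb), Atp2a3 (3.84 per kb) came before Itpr3 (3.72 per kb), and the other places in the order were kept.

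**Figure D1:**
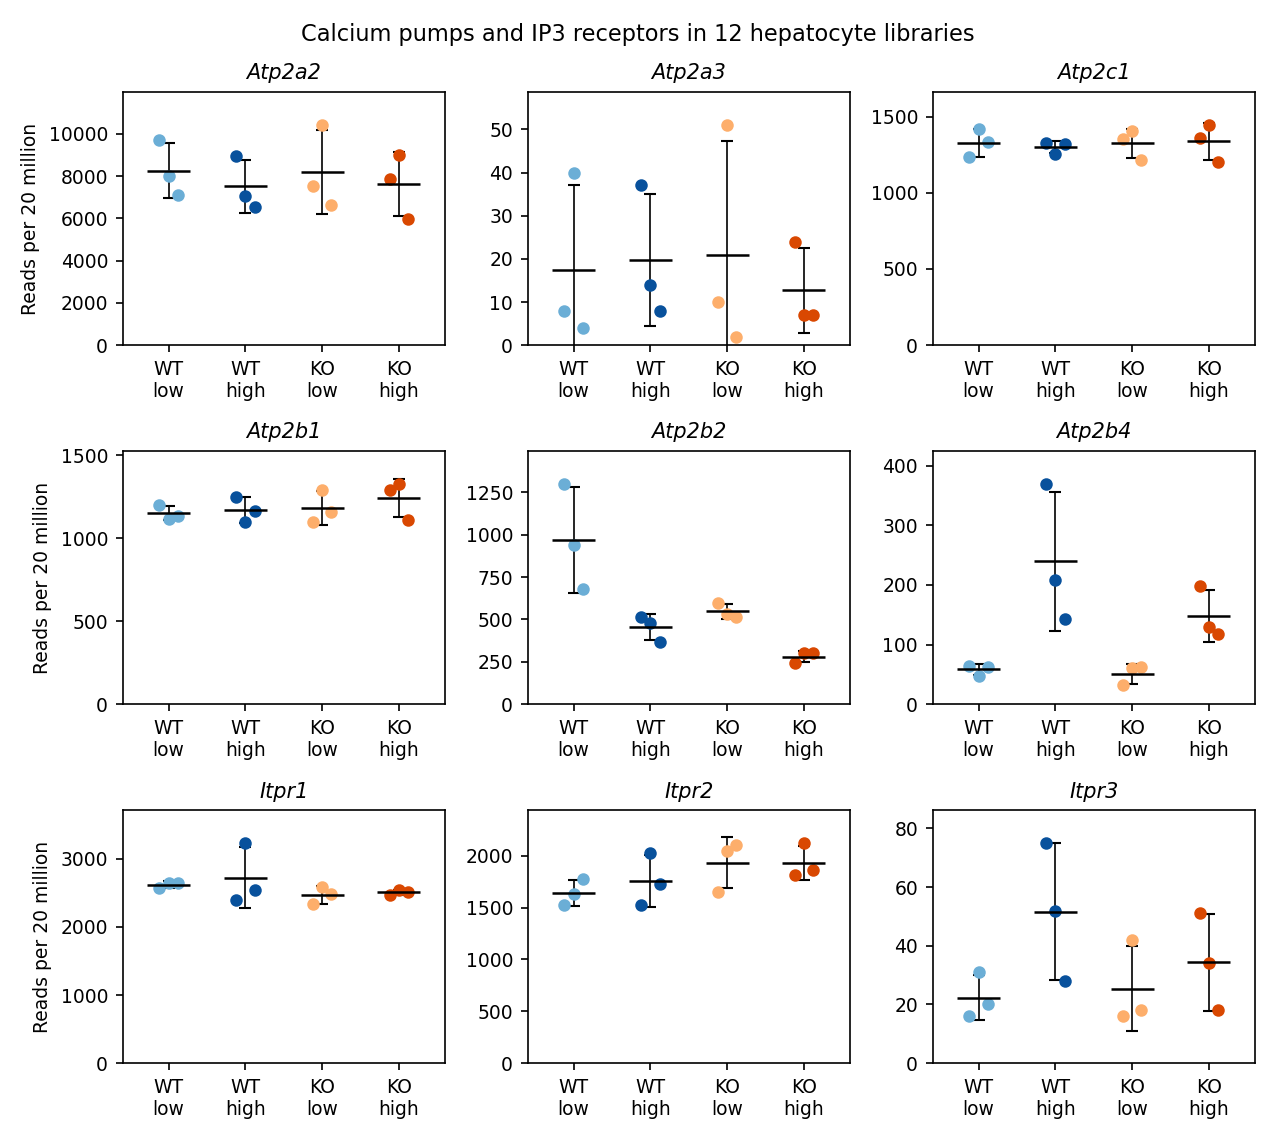
Reads per 20 M (vertical axis, from 0) of the 9 genes in the 4 groups (horizontal axis); points are libraries, the bar is the group mean and the whisker 1 SD (n = 3), cut at 0 for Atp2a3. Atp2b2 and Atp2b4 are the members whose low-fat and high-fat libraries do not overlap in either genotype.

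Atp2b2 (ENSMUSG00000030302) encodes plasma membrane calcium pump 2, a fast isoform best known from neurons, inner ear hair cells and lactating mammary gland. It lies on chromosome 6, from 113743831 to 114042613 on the minus strand (GRCm38, GENCODE M21), and 3 other annotated genes lie within its span, none sharing exon bases with it. RefSeq lists 3 start sites for it, and the deposited value adds up reads from all of them. The 100 bases before each start are shown to let the starts be told apart, from the RefSeq table of build GRCm38.p6, minus strand, 5′ to 3′, with CG dinucleotides in capitals. They lie at chr6:114042081-114042180, chr6:113934682-113934781 and chr6:113891540-113891639. All lie inside the GENCODE span of the gene, which reaches beyond RefSeq start 1 to 114042613.
Atp2b2 start 1: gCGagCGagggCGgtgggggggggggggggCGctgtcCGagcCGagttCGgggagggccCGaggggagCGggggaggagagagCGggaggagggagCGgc
Atp2b2 start 2: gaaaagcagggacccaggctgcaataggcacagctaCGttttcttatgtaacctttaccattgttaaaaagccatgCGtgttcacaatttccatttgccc
Atp2b2 start 3: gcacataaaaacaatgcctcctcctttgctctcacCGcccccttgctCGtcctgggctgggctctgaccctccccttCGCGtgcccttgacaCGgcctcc

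Start 1, the outermost of the RefSeq starts, is rich in CG. Its 250 bases hold 16 CG dinucleotides, a count reached by 25.4% of the 32851 promoter windows of that length in the table. The inner starts hold 6 each, a count reached by 50.4%. Which start was used in these libraries was not measured.

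By the choice of the family, Atp2b2 was lower in high-fat hepatocytes. In WT the low-fat libraries gave 1300, 937 and 678 reads per 20 M for replicates 1 to 3, and the high-fat libraries of the same mice gave 515, 482 and 370. In KO the low-fat libraries gave 597, 533 and 515, and the high-fat libraries 241, 300 and 302. The fractions did not overlap in either genotype, and the high-fat library held 39.6% to 58.6% of the low-fat level in 6 of 6 mice. The log2 difference was -1.13 (SE 0.212) in WT and -1.03 (SE 0.212) in KO, and -1.23 and -0.87 without the high-fat library of replicate 1. In bulk libraries such as these, less RNA per cell and fewer cells that carry the transcript cannot be told apart.

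Atp2b4 (ENSMUSG00000026463, chromosome 1, 133699457 to 133801041, minus strand), plasma membrane calcium pump 4, is known as a widely expressed isoform and as a main calcium pump of red blood cells. Its levels ran opposite to those of Atp2b2. In WT the low-fat libraries gave 64, 48 and 63 reads per 20 M and the high-fat libraries 369, 208 and 142. In KO the low-fat libraries gave 32, 60 and 62 and the high-fat libraries 198, 130 and 117. The fractions did not overlap, and the ratio of high-fat to low-fat ranged from 1.89 to 6.19 over the 6 mice. The log2 difference was 1.82 (SE 0.329) in WT and 1.45 (SE 0.329) in KO. Within each genotype its highest value was in the high-fat library of replicate 1, the one with the highest Kupffer marker sum. Across genotypes the order differed. WT high-fat replicate 2 had an Atp2b4 value of 208 and a Kupffer sum of 2594, and KO high-fat replicate 1 had 198 and 10820. Without the high-fat library of replicate 1 the log2 difference was 1.46 in WT and 1.28 in KO. The summed stellate, Kupffer and sinusoidal endothelial markers were each higher in the high-fat fraction in 6 of 6 mice, and their part in the Atp2b4 difference was not tested.

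**Figure D2:**
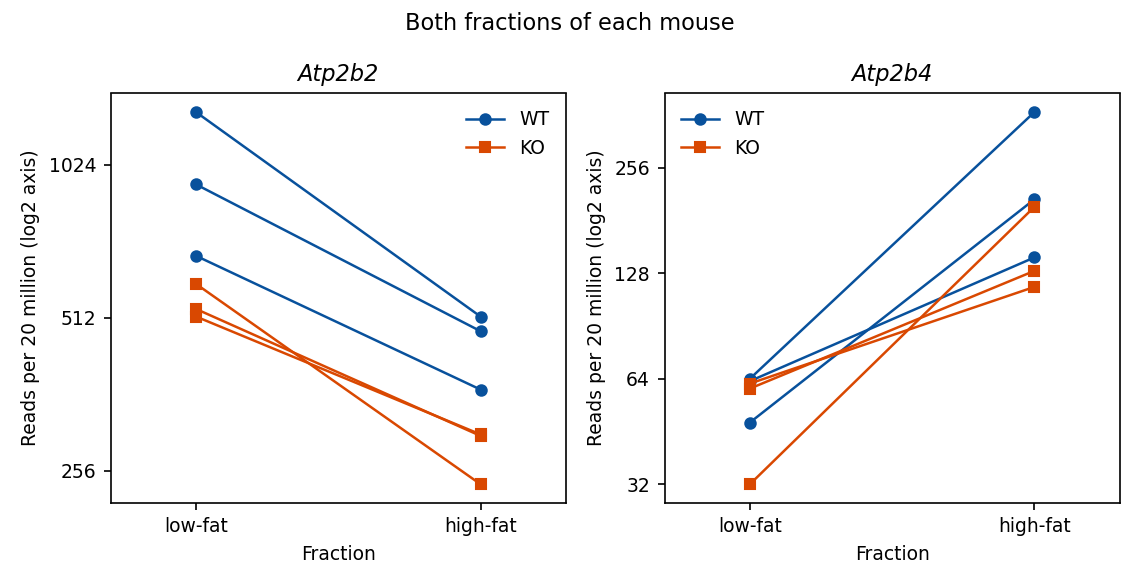
Reads per 20 M on a log2 axis in the low-fat and high-fat library of each mouse, for Atp2b2 (left) and Atp2b4 (right); each line is a mouse, blue for WT and orange for KO. Every Atp2b2 line slopes down, with each KO point below each WT point of its fraction, and every Atp2b4 line slopes up.

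Atp2b1 (ENSMUSG00000019943, chromosome 10, 98914406 to 99026143, plus strand), the plasma membrane pump found in nearly all cells, showed no such shift. It ranged from 1096 to 1326 reads per 20 M over the 12 libraries, with fractions overlapping in both genotypes. Its log2 difference between fractions was -0.059 in WT (95% interval -0.26 to 0.14) and 2.5e-04 in KO (-0.20 to 0.20).

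The other pumps overlapped between fractions as well. Atp2a2 (ENSMUSG00000029467, chromosome 5, 122453513 to 122502225, minus strand), whose product refills the endoplasmic reticulum, averaged 8269 ± 1320.1 (WT) and 8188 ± 1986 (KO) in low-fat and 7516 ± 1262 and 7615 ± 1519.7 in high-fat libraries (SD, n = 3). In 5 of 6 mice the high-fat value was the lower, with 86.4% to 104% of the low-fat level over all mice. Atp2c1 (ENSMUSG00000032570, chromosome 9, 105403539 to 105527319, minus strand) lay between 1205 and 1445 in every library. Its exons overlap those of Aste1 on the other strand, as those of Atp2a2 overlap Gm43361, and those of Atp2b4 overlap Mir6903 on the same strand. Whether counting used strand is not given in the sources used here. Atp2a3 (ENSMUSG00000020788, chromosome 11, 72961169 to 72993044, plus strand), a pump known from blood and endothelial cells, lay between 2 and 51. It was near the floor in WT low-fat replicate 3 (4) and KO low-fat replicate 3 (2). Its highest values were 51 in KO low-fat replicate 2 and 40 in WT low-fat replicate 2. The same libraries held the highest B cell marker sums, 264 and 165, against 10 to 129 in the others, and the part of such cells in the Atp2a3 level was not tested.

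Among the release channels, Itpr1 (ENSMUSG00000030102, chromosome 6, 108213096 to 108551109, plus strand) and Itpr2 (ENSMUSG00000030287, chromosome 6, 146108299 to 146502223, minus strand), the receptors known to dominate in hepatocytes, were abundant. Itpr1 ranged from 2335 to 3231 reads per 20 M and Itpr2 from 1523 to 2123, and their log2 differences between fractions lay between -0.066 and 0.0077. Itpr3 (ENSMUSG00000042644, chromosome 17, 27057304 to 27122223, plus strand), known as the main receptor of bile duct cells, was scarce, at 16 to 75. Its exons overlap those of the antisense gene Itpr3os, whose reads may be included. It was highest in the high-fat libraries of replicate 1 in each genotype, at 75 in WT and 51 in KO. Its log2 difference between fractions was 1.01 in WT and 0.36 in KO, and 0.70 and 0.086 without those libraries. Its mean was 22.3 ± 7.77 in WT low-fat and 51.7 ± 23.5 in WT high-fat libraries, and 25.3 ± 14.5 and 34.3 ± 16.5 in KO (SD, n = 3). The 7 bile duct cell markers used summed to 376 to 510 in low-fat and 272 to 365 in high-fat libraries. Only 2 of the 7 passed the filter on low values, so the sum does not show how the markers moved one by one. Krt19, Krt7, Cftr and Cldn7 were at 0 in at least part of the libraries. The part of bile duct cells in the Itpr3 level was not tested.

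The count of members called between fractions is given for completeness, and nothing is read from it because the choice of the family used this difference. limma called 0 of 9 members in WT, beside 0% of all genes tested, and 1 of 9 in KO, Atp2b2, beside 0.894%. Atp2b2 was no longer called in KO under 6 other settings, nor without any 1 of the 6 KO libraries. A replicate block for the mouse gave 2 of 9 in WT, Atp2b2 and Atp2b4, beside 1.02%, and 1 of 9 in KO, Atp2b2, beside 2.14%. In WT, 3.51% of genes were lower and 10.4% higher in high-fat libraries without overlap, and in KO 2.64% and 8.54%. Over all 6 mice, 5.93% of genes were lower in every high-fat library and 10.8% were higher. The median log2 difference of the 9 members was -0.04 in WT and -0.06 in KO, and that of all genes tested -0.042 and -0.043.

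Zonation genes also differed between fractions in the direction of Atp2b2 or against it. The 10 periportal hepatocyte genes, such as Hal, Sds and Cyp2f2, summed to 200158 to 237209 reads per 20 M in low-fat and 149300 to 173748 in high-fat libraries, lower in 6 of 6 mice. The 10 pericentral genes, such as Glul, Cyp2e1 and Oat, summed to 49768 to 92911 and 86475 to 121013, higher in 6 of 6 mice. Their part in the Atp2b2 difference was not tested.

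Genotype was compared next, a difference that the choice of the family did not use, although it is drawn from the same libraries. Atp2b2 was lower in KO than in WT in each fraction. The KO low-fat libraries (515 to 597) lay below each WT low-fat library (678 to 1300), and the KO high-fat libraries (241 to 302) below each WT high-fat library (370 to 515). The KO mean was 56.4% of the WT mean in low-fat and 61.7% in high-fat libraries. Such a pattern, KO lower without overlap, was found for 2.97% of all genes in low-fat libraries, for 2.49% in high-fat libraries and for 0.392% in both. WT mice differed more among themselves than KO mice: the mean of both fractions was 908, 709.5 and 524 for the 3 WT mice and 419, 416 and 408 for the 3 KO mice.

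The difference in Atp2b2 did not pass the adjustment over all genes. The log2 difference was -0.76 in low-fat libraries (SE 0.212, 95% interval -1.23 to -0.30, limma unadjusted p = 0.00383, adjusted p = 0.9999) and -0.66 in high-fat libraries (SE 0.212, 95% interval -1.13 to -0.20, limma unadjusted p = 0.00903, adjusted p = 0.9999). Over the alternatives run the adjusted p ranged from 0.892 to 0.9999 and from 0.627 to 0.9999. A two-sided exact permutation test on the mouse means gave p = 0.1, the smallest value that 3 against 3 mice allow. The periportal genes shared the direction of Atp2b2 between fractions. Their median log2 difference of KO against WT was 0.05 in low-fat and 0.10 in high-fat libraries, and that of the pericentral genes -0.60 and -0.51. Of the 10 genes in each list limma called 0, beside 0.00604% of all genes. At a limma unadjusted p under 0.05 there were 1 periportal and 3 pericentral genes in each fraction, beside 1.64% and 1.97% of all genes. The part of zonation in the genotype difference of Atp2b2 was not tested.

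No member was called by limma in a genotype comparison, 0 of 9 in each fraction, beside 0.00604% of all genes in each, the single gene called being Ptprk. At an unadjusted p under 0.05 there was 1 of 9 members in each fraction, Atp2b2 both times, beside 1.64% and 1.97% of all genes. Both shares of all genes are smaller than the threshold of 0.05 itself. Without KO high-fat replicate 1 the count in high-fat libraries rose from 327 to 1206 genes. The cause was not tested, and an adjusted p near 1 in these comparisons does not show that a difference is absent. The median log2 difference of the 9 members was 0.01 in low-fat and -0.08 in high-fat libraries, and that of all genes 0.0010 and 0.0031. For Atp2a2, Atp2b1, Atp2c1 and Itpr1 the 95% intervals were narrow enough to bound the difference: the widest, that of Atp2a2, ran from -0.42 to 0.39 and from -0.37 to 0.44. For Atp2a3, with intervals of -2.01 to 2.04 and -2.53 to 1.52, differences of several fold were not detectable at this depth and spread. Atp2b4 averaged 51.3 ± 16.8 in KO and 58.3 ± 8.96 in WT low-fat libraries, and 148 ± 43.5 and 239.7 ± 117 in high-fat libraries (SD, n = 3), with overlap in both.

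**Figure D3:**
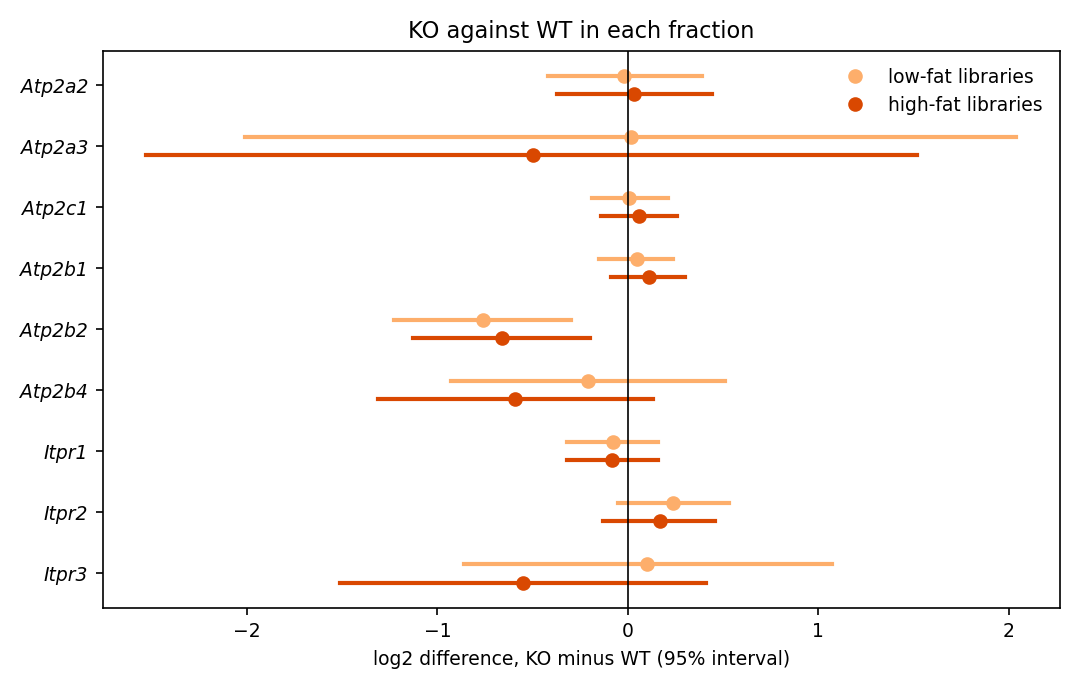
Log2 difference of KO minus WT (horizontal axis) with its 95% interval for the 9 genes, in low-fat (light) and high-fat (dark) libraries, from the limma fit. The intervals of Atp2b2 lie below 0 in both fractions before any adjustment for the number of genes, and those of the other 8 genes include 0.

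The interaction of genotype and fraction was tested in the same fit. limma called 0 of 9 members, beside 0% of all genes, and 0 of 9 had an unadjusted p under 0.05, beside 0.145%. For Atp2b2 the interaction was 0.10 on the log2 scale (95% interval -0.56 to 0.76, limma adjusted p = 0.9999), so that genotypes could differ in their high-fat to low-fat ratio anywhere within that interval. For Atp2b4 it was -0.38 (-1.39 to 0.64), and -0.022 without WT high-fat replicate 1.

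Shares within a family compare isoforms inside each library and do not depend on the scaling between libraries; they were added after the values had been seen. Among the plasma membrane pumps, per length of exon, Atp2b2 made up 55.1%, 49.0% and 40.3% of the transcripts in the WT low-fat libraries, against 38.8%, 32.0% and 33.5% in those of KO. In high-fat libraries it made up 26.7%, 30.0% and 25.0% in WT and 15.9%, 19.6% and 22.5% in KO. Each KO share lay below each WT share of the same fraction. How often shares of other genes part the genotypes in this way was not computed. The share uses the same Atp2b2 values as the level difference above and is not a separate result. Atp2b1 took 42.1% to 65.1% in the WT and 59.0% to 71.7% in the KO libraries, and Atp2b4 took 2.14% to 4.15% in low-fat and 8.73% to 19.7% in high-fat libraries. The shares depend on the length used. With the longest transcript Atp2b4 took 1.22% to 2.34% and 4.80% to 11.9%. Atp2b2 then took 45.8% and 39.6% in WT low-fat replicates 1 and 2, below the 52.5% and 58.8% of Atp2b1, whereas with all exons it lay above Atp2b1 in both. The KO shares of Atp2b2 lay below the WT shares of the same fraction with either length. The summed level of the 3 pumps was 157 ± 27.3 per kb (WT) and 125 ± 5.84 (KO) in low-fat and 133 ± 18.4 and 116 ± 8.37 in high-fat libraries (SD, n = 3).

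The balance of the 2 abundant IP3 receptors also differed between genotypes without overlap. The ratio of Itpr2 to Itpr1 reads was 0.595, 0.618 and 0.669 in WT low-fat and 0.636, 0.627 and 0.678 in WT high-fat libraries. In KO it was 0.709, 0.790 and 0.849 in low-fat and 0.736, 0.833 and 0.742 in high-fat libraries. All 6 KO libraries lay above all 6 WT libraries, and the fractions overlapped within each genotype. The ratio was picked after the values had been seen. Of all pairs of genes with a mean of at least 100 and no value of 0, 0.438% had a ratio that parted the genotypes in this way, in either direction. Exons of Itpr1 overlap those of Gm44101 and Gm44040 on the other strand, whose reads may be included in its level. As a share of the 3 receptors per length of exon, Itpr2 was at 43.3% ± 1.49 (WT) and 48.6% ± 2.25 (KO) in low-fat and at 43.5% ± 1.37 and 48.1% ± 1.80 in high-fat libraries (SD, n = 3). Two-sided exact permutation tests were run for 8 shares in each of the fractions, 16 in all. For Atp2b1, Atp2b2, Itpr1 and Itpr2 the exact tests gave p = 0.1 in both fractions. This is the smallest value this design allows, so that none could pass 0.05. Adjusted by Benjamini-Hochberg over the 16 exact tests, it became 0.200. Shares of a family add up to the whole, so the results of Atp2b1 and Atp2b2, and those of Itpr1 and Itpr2, are not independent. Neither Itpr1 nor Itpr2 was called by limma on its own level. The log2 difference of Itpr2 was 0.24 (95% interval -0.05 to 0.53) and 0.17 (-0.13 to 0.46), and that of Itpr1 -0.077 (-0.32 to 0.16) and -0.084 (-0.32 to 0.16). The endoplasmic reticulum pump transcripts were Atp2a2 in every library, at 99.4% or more.

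**Figure D4:**
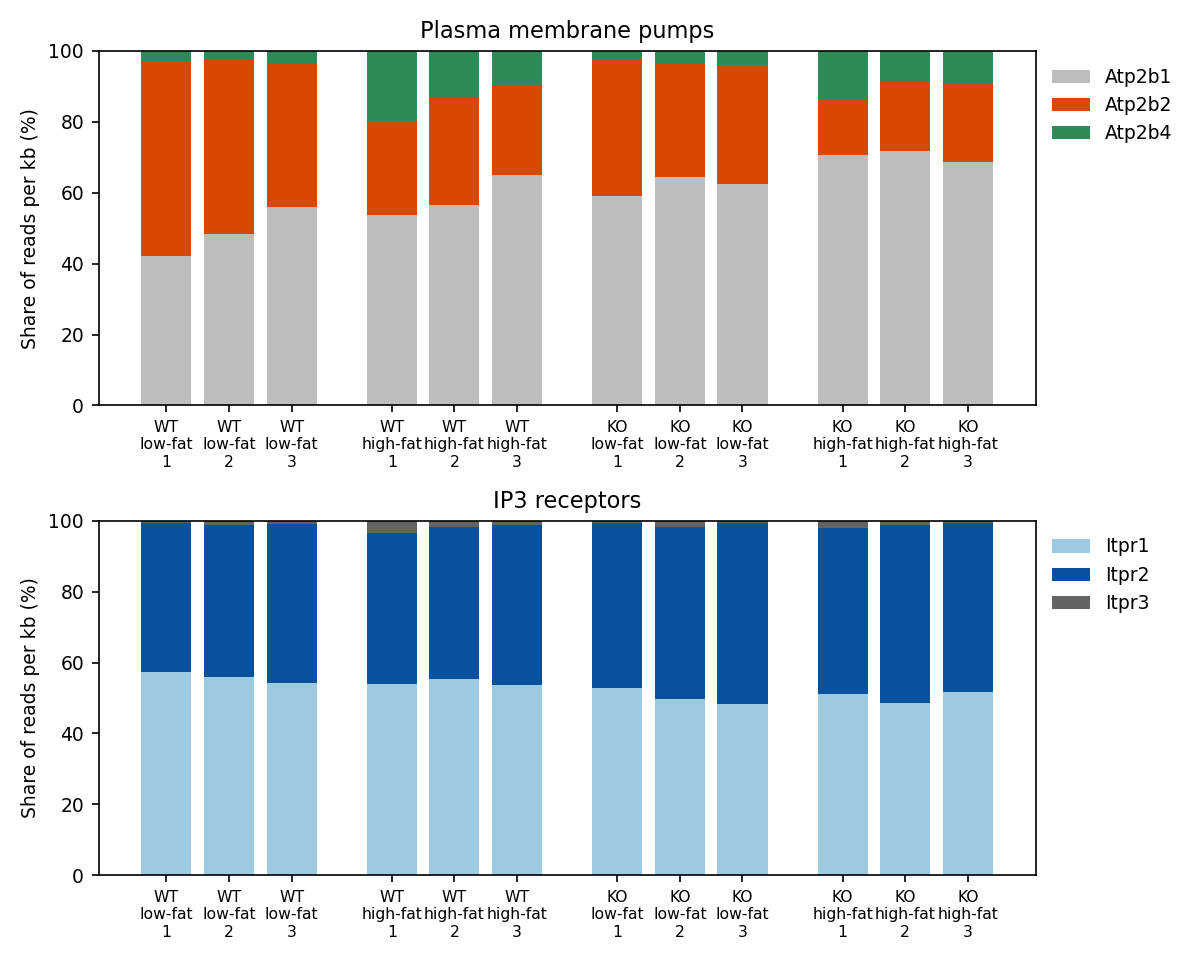
Share of each isoform in the summed reads per kb (vertical axis, percent) of the plasma membrane pumps (top) and the IP3 receptors (bottom) in each of the 12 libraries. The Atp2b2 share runs from 15.9% in KO high-fat replicate 1 to 55.1% in WT low-fat replicate 1, and the Itpr2 share lies between 42.1% and 45.1% in WT and between 46.4% and 50.9% in KO libraries.

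The genes whose levels followed Atp2b2 most closely over the 12 libraries were Slc17a4, Kynu, Stra6l, St3gal1 and Mif4gd. Their Pearson's r with Atp2b2 on the log2 scale was 0.976, 0.930, 0.919, 0.915 and 0.914, the highest among 10510 genes compared, and Spearman's rho was 0.986, 0.944, 0.979, 0.888 and 0.881. These are descriptions: the libraries come in pairs from 6 mice and fall into fractions. Slc17a4, an anion transporter of the solute carrier family, averaged 2395 ± 276 (WT) and 1974 ± 87.3 (KO) in low-fat and 1955 ± 98.1 and 1687 ± 63.1 in high-fat libraries (SD, n = 3), highest and lowest in the same groups as Atp2b2 but over a smaller range. Of the other members, Atp2a2 had the highest r with Atp2b2, 0.45 (rho 0.38), and Itpr1 the highest rho, 0.39 (r 0.33). Atp2b4 had the lowest of both, an r of -0.59 and a rho of -0.65.

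The wider calcium pathway was read from 9 lists with 127 names, of which 120 matched the table and 101 genes were tested. In the genotype comparisons limma called 0 of 101 genes in either fraction, with 1 and 2 at an unadjusted p under 0.05, beside 1.64% and 1.97% of all genes. For the interaction it called 0, with 0 at an unadjusted p under 0.05. Between fractions it called 0 of 101 in WT and 1 in KO, Itpripl2, which was higher in high-fat libraries; that is 0.990% of the lists beside 0.894% of all genes. With the mouse as a block it called Rcn1 in WT, 0.990% beside 1.02%, and Rcn1 and Itpripl2 in KO, 1.98% beside 2.14%. These shares are near those of all genes. The median log2 difference of the 101 genes between fractions was -0.11 in WT and -0.08 in KO, and that of all genes -0.042 and -0.043. The lists were chosen with earlier results of these data known.

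In each list the highest and the lowest difference of high-fat against low-fat libraries were taken by rule, as a description. Most of the highest belonged to genes of low level: Itpripl2 (mean log2 difference over both genotypes 2.14), the sodium-calcium exchanger Slc8a1 (2.0), the phospholipase Plcb2 (1.70), the endoplasmic reticulum calcium-binding Rcn1 (1.58), the channel regulator Cracr2b (1.35) and the ATP-gated channel P2rx7 (0.83). Within each genotype each of these genes was highest in the high-fat library of replicate 1, the one with the highest Kupffer marker sum. Itpripl2 was at 260, 107 and 101 in WT and 198, 100 and 99 in KO high-fat libraries. Rcn1 was at 170, 94 and 58 in WT and 95, 76 and 67 in KO high-fat libraries. Slc8a1 was at 101, 28 and 11 in WT and 81, 18 and 16 in KO high-fat libraries, with an SE of 0.936 for its log2 difference in either genotype. Plcb2 was at 97, 24 and 18 in WT and 75, 13 and 12 in KO high-fat libraries, with an SE of 0.914. The stellate, Kupffer and sinusoidal endothelial marker sums were higher in the high-fat fraction of 6 of 6 mice, and their part in these differences was not tested. Itpripl2 averaged 35 ± 2 in WT low-fat and 156 ± 90.1 in WT high-fat libraries, and 25 ± 15.1 and 132 ± 56.9 in KO (SD, n = 3). Other highest values were 0.32 for the skeletal muscle pump Atp2a1, at group means of 6.67 to 12.3 reads per 20 M, and 0.26 for the calcineurin regulator Rcan2. In the list of mitochondrial calcium uptake the highest value was -0.030, that of Pdzd8. The lowest values were -0.34 for the IP3 kinase Itpka, -0.30 for the calmodulin gene Calm3, -0.27 for the kinase Camk1d, -0.26 for Egfr and for the phospholipase Plce1, -0.23 for the outer mitochondrial channel Vdac1 and for the chaperone Pdia3, -0.19 for the store-operated channel Orai3 and -0.17 for the leak channel Tmco1.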

How the data were processed

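RNA sequencing of polyA RNA from 12 hepatocyte libraries was analysed from a single deposited table. The authors scaled the read counts of each library to 20 M and rounded them up, so the deposited values are a score and not raw counts. This was read from the values: each library sums to 20.01 M, and the low values show the gaps or excesses such scaling leaves, from which depth was estimated. The submitters' processing notes name build mm9; aligner, counter, annotation release and strandedness are not given in the sources used here. Gene positions and exon lengths are from GENCODE M21 (GRCm38), where 52403 of 52636 identifiers matched.

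A gene was tested where 3 or more libraries had a value of 10 or higher. Values were scaled by a trimmed mean of M values, written for this purpose, and taken as log2(value + 2), which understates changes of low genes. limma 3.58.1 in R 4.3.3 fitted 4 group means to all 12 libraries with a trend of the variance on mean level. The p-values are two-sided and adjusted by Benjamini-Hochberg over all genes tested, with calls under 0.05. The code was checked on simulated data with 200 changed genes among 16563 and no pairing of libraries. There the main fit called 53.3% of 2-fold changes between genotypes in low-fat libraries and 52.1% in high-fat libraries. For the interaction it called 37%. Many changes of this size would therefore be missed, and smaller ones were not simulated. Overlap of groups was read from the deposited values.

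Both libraries of a replicate number come from the same mouse by their labels; a further fit added the mouse (between fractions) or the replicate number (between genotypes) as a replicate block. Deviations from group means of same-numbered libraries correlated at a mean r of 0.516 (WT) and 0.162 (KO) between fractions, and 0.314 (low-fat) and 0.233 (high-fat) between genotypes, whose mice differ. In the low-fat genotype comparison every pair exceeded 0.1 (lowest 0.252), while in the high-fat comparison the lowest was -0.173. Replicates are different mice. SEs and intervals of the members come from the fit without a block, which does not pair the libraries of a mouse, unless stated.

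Alternatives were another scaling, none, pseudocounts of 0.5 and 10, no filter, only the libraries compared, and leaving out each library. Named genes are the 9 members, Ptprk, the 5 genes most correlated with Atp2b2 among those with a mean of at least 100, called genes of the calcium lists, and the largest rise and fall of each list. Members and lists were chosen with earlier results of these data known. Markers were Dcn, Col1a1, Col1a2, Col3a1, Lrat, Reln, Pdgfrb, Des, Rgs5, Ecm1 and Colec11 for stellate cells, and lists of like kind for other cells; 1 bile duct marker is not reported here. T and NK cell, B cell, neutrophil and smooth muscle markers summed to 6 to 119, 10 to 264, 6 to 129 and 80 to 114 in low-fat and 9 to 96, 12 to 129, 15 to 117 and 75 to 183 in high-fat libraries, and 5 nuclear-retained RNAs to 27592 to 124202 and 32028 to 154343.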

Additional observations from a re-analysis of the deposited data

How the results depend on the processing

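In each genotype comparison and for the interaction limma called 0 of 9 members under every alternative run, the replicate block included, and Atp2b2 was lower in KO in both fractions under each. Its log2 difference of KO against WT in low-fat libraries ranged from -0.97 to -0.52 when a library was left out, the smaller value without WT low-fat replicate 1, and in high-fat libraries from -0.79 to -0.49, the smaller without KO high-fat replicate 1. Counts of genes called moved more. With the replicate block for the mouse, the pairing given by the labels, 169 genes were called between fractions in WT (main 0) and 354 in KO (main 148), and 2 members in WT (main 0). Pseudocount 10 gave 1 gene in WT, and leaving out a library 0 to 1. In KO the fit to the libraries compared alone gave 0 genes, and leaving out a library 0 to 75. The 1 member called in KO became 0 under both other scalings, both other pseudocounts, no filter, the libraries compared alone and without each library in turn. Ptprk, the 1 gene called between genotypes in high-fat libraries, became 0 in the fit to those libraries alone, with 210 genes at an unadjusted p under 0.05, and was lost without KO high-fat replicate 1 (range 0 to 1). The cause was not tested. Some genotype differences and interactions changed sign, and not all of them were near 0. The main value was -0.21 for Atp2b4 in low-fat libraries, -0.50 for Atp2a3 in high-fat libraries and -0.52 for the interaction of Atp2a3. In low-fat libraries Atp2a3 was at -0.054 with pseudocount 0.5 (main 0.017), and Atp2c1 at -9.1e-04 with median-of-ratios and -0.0036 with deposited scaling (main 0.0078). Leaving out a library gave ranges in low-fat libraries of -0.18 to 0.12 for Atp2a2, -0.95 to 0.91 for Atp2a3, -0.027 to 0.086 for Atp2b1, -0.40 to 0.053 for Atp2b4, -0.042 to 0.069 for Atp2c1 and -0.28 to 0.31 for Itpr3. In high-fat libraries they were -0.11 to 0.16 for Atp2a2, -0.96 to 0.024 for Atp2a3, -0.0084 to 0.11 for Atp2c1 and -0.18 to 0.041 for Itpr1. For the interaction they were -0.089 to 0.23 for Atp2a2, -1.41 to 0.45 for Atp2a3, -0.14 to 0.30 for Atp2b2, -0.67 to -0.022 for Atp2b4 (no change of sign), -0.016 to 0.11 for Atp2c1, -0.10 to 0.12 for Itpr1 and -0.18 to 0.039 for Itpr2. Between fractions, with deposited scaling, Atp2b1 and Itpr1 in WT moved from -0.059 to 0.022 and from -0.038 to 0.043, and Atp2c1, Itpr1 and Itpr2 in KO from -0.057 to 0.012, from -0.045 to 0.025 and from -0.066 to 0.0036. The fit to the libraries compared alone was not run for the interaction, which needs all groups. Atp2a3 lay near the level of 3 reads in WT low-fat replicate 3 (4) and KO low-fat replicate 3 (2), and at 7 to 51 in the others. Its spread was wide, with an SD of 26.3 on a mean of 21 in KO low-fat libraries.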
